A study of Mus musculus with 9 samples.

Results

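The JAK, STAT and SOCS genes described here are the 4 Janus kinase genes Jak1, Jak2, Jak3 and Tyk2, the STAT genes Stat3, Stat5a, Stat5b and Stat6, and the inhibitor genes Socs1 and Socs3. These 10 genes were found by symbol, through the NCBI gene identifiers, among the 17943 genes of a count table of mouse skin, and all 10 passed the filter on low counts, which kept 16426 genes. The table holds bulk mRNA libraries from 5 control mice and 4 Supt6-KO mice, collected on day 10 after the last injection. Supt6 encodes SPT6, a histone chaperone that travels with elongating RNA polymerase II. The Supt6-KO mice carried K14-CreERT and Supt6 fl/fl alleles and received tamoxifen, so that recombination was directed to epithelial cells that use the keratin 14 promoter and not to dermal, vascular, muscle or immune cells. The controls were Supt6 fl/fl mice given corn oil, and both groups therefore carried the floxed alleles, while Cre and tamoxifen differ together between the groups and cannot be told apart from the loss of Supt6. The sample labels name the tissue as ear and the controls as wild-type, whereas the study describes dorsal skin and floxed controls. It places the injections in the first telogen, the resting phase of the hair cycle, and gives no age in days with them. Nothing states whether the mice came from separate litters, cages or preparation days, so the p-values measure the spread between these 9 animals.

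Cytokines of many families act through this pathway. A receptor that lacks enzyme activity brings its JAKs together, the kinases phosphorylate the receptor tail, and STAT proteins dock there, are phosphorylated in turn, pair up and enter the nucleus to switch on target genes. SOCS genes are among those targets, and their products bind JAKs or receptors and shut the signal down, which makes a negative feedback loop. In skin, STAT3 is known for its role in wound repair and psoriasis-like inflammation, STAT6 for responses to IL-4 and IL-13, and STAT5 for growth factor, hormone and lymphocyte signals. Messenger RNA levels, which are all that was measured here, do not show phosphorylation or activity.

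Each library held 29627334 to 30967109 estimated counts. Levels are given as library-scaled counts (CPM) after TMM scaling, which sets libraries on the bulk of genes rather than on their totals, and its factors were 1.198 to 1.315 for the controls but 0.674 to 0.91 for the Supt6-KO mice. Higher and lower therefore mean relative to the bulk of genes. Supt6 itself stood at 76.5 ± 17.2 CPM (SD, n = 5) in the controls and 25.7 ± 3.31 CPM (SD, n = 4) in the Supt6-KO mice, and the groups did not overlap. Its log2 fold change was -1.57 with TMM scaling, -2.26 with library totals and -0.67 with the length correction described further on (adjusted p = 0.000317, edgeR). Supt6-KO mouse 4 stood apart from the other 3 in its keratinocyte markers. Its summed level of 8 suprabasal keratinocyte markers, of which Krt10 was the most abundant, was 21870.1 CPM, against 42422 to 44996 CPM in the other Supt6-KO mice and 21773 to 23804 CPM in the controls. The summed level of 8 basal keratinocyte markers, led by Krt14 in the Supt6-KO group and by Krt5 in the controls, was 14176 CPM in this mouse and 5921 to 8500.0 CPM in the other Supt6-KO mice. Over all 4 mice 7 of the 8 basal markers were lower, and of the 8 suprabasal markers 4 were higher and 1 lower. Calls among the 10 genes that change without this mouse are given both ways. Means below carry the SD over the 5 controls or the 4 Supt6-KO mice.

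All 4 Janus kinase genes were lower in Supt6-KO skin relative to the bulk of genes, and for each of them the groups did not overlap. Of all genes tested 36.8% were lower (adjusted p under 0.05) and 31.8% had every control above the highest Supt6-KO mouse, and of the genes within 10% of the same length 50.2% (Jak3) to 56.7% (Jak2) were lower. With the length correction Jak3 stayed lower, Jak1 at -0.14 (adjusted p = 0.208, edgeR) and Tyk2 at -0.16 (adjusted p = 0.237) on the log2 scale did not pass, and Jak2 turned to 0.36. Jak1, the kinase shared by the interferon, gp130 and common gamma chain receptors, lies on chromosome 4 from 101152367 to 101265282 (GRCm38, reverse strand). Its level was 163, 135, 148, 176 and 191 CPM in the 5 controls and 91.9, 87.0, 85.4 and 107 CPM in the 4 Supt6-KO mice. Even the highest Supt6-KO mouse stayed under the lowest control, and the mean fell to 57.1% of the control mean, a log2 fold change of -0.81 (SE 0.13, adjusted p = 0.000228; the test was edgeR's quasi-likelihood test, with p-values adjusted by the Benjamini-Hochberg method over all genes tested). In bulk tissue, fewer cells of a type and less RNA per cell cannot be told apart.

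Tyk2, a kinase of type I interferon, IL-10 and IL-12 family receptors, lies on chromosome 9 from 21104068 to 21131243 on the reverse strand. It was measured at 16.1, 13.5, 17.9, 18.3 and 19.2 CPM in the controls and at 9.69, 8.59, 10.2 and 10.8 CPM in the Supt6-KO mice. The groups were as clearly apart as for Jak1, and the size of the change was nearly the same, with a log2 fold change of -0.79 (SE 0.14, adjusted p = 0.000424, edgeR).

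Jak2, the kinase of the growth hormone, prolactin, erythropoietin and interferon-gamma receptors, lies on chromosome 19 from 29251828 to 29313080 on the forward strand. Controls held 50.7, 48.2, 43.4, 51.8 and 49.2 CPM of it, and Supt6-KO mice 40.2, 35.4, 39.5 and 42.1 CPM. Control mouse 3 and Supt6-KO mouse 4 nearly met, and the means were 48.6 ± 3.27 CPM (SD, n = 5) and 39.3 ± 2.85 CPM (SD, n = 4). The log2 fold change was -0.31 (SE 0.10, adjusted p = 0.0171, edgeR), and without control mouse 1 it was -0.29 and no longer passed the test (adjusted p = 0.0516).

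Jak3, which pairs with the common gamma chain and is used mostly by lymphocytes, lies on chromosome 8 from 71676296 to 71690575 on the forward strand and was, per length, the rarest of the 10 genes. It rested on 71 to 130 counts in the controls and 17 to 39 counts in the Supt6-KO mice. Its levels were 2.70, 1.94, 2.44, 3.38 and 3.31 CPM in the controls against 1.09, 0.912, 0.778 and 1.40 CPM in the Supt6-KO mice. The drop to 37.9% of the control mean was the largest of the Janus kinase genes (log2 fold change -1.39, SE 0.25, adjusted p = 0.000425, edgeR). Over the same mice the summed level of 7 measured T cell markers, led by Cd3g in the controls and by Lck in the mean of the Supt6-KO group, was 42.8 ± 5.93 CPM (SD, n = 5) in controls and 11.6 ± 3.49 CPM (SD, n = 4) in Supt6-KO mice, 5 of the 7 were lower, and their part in the Jak3 result was not tested.

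**Figure D1:**
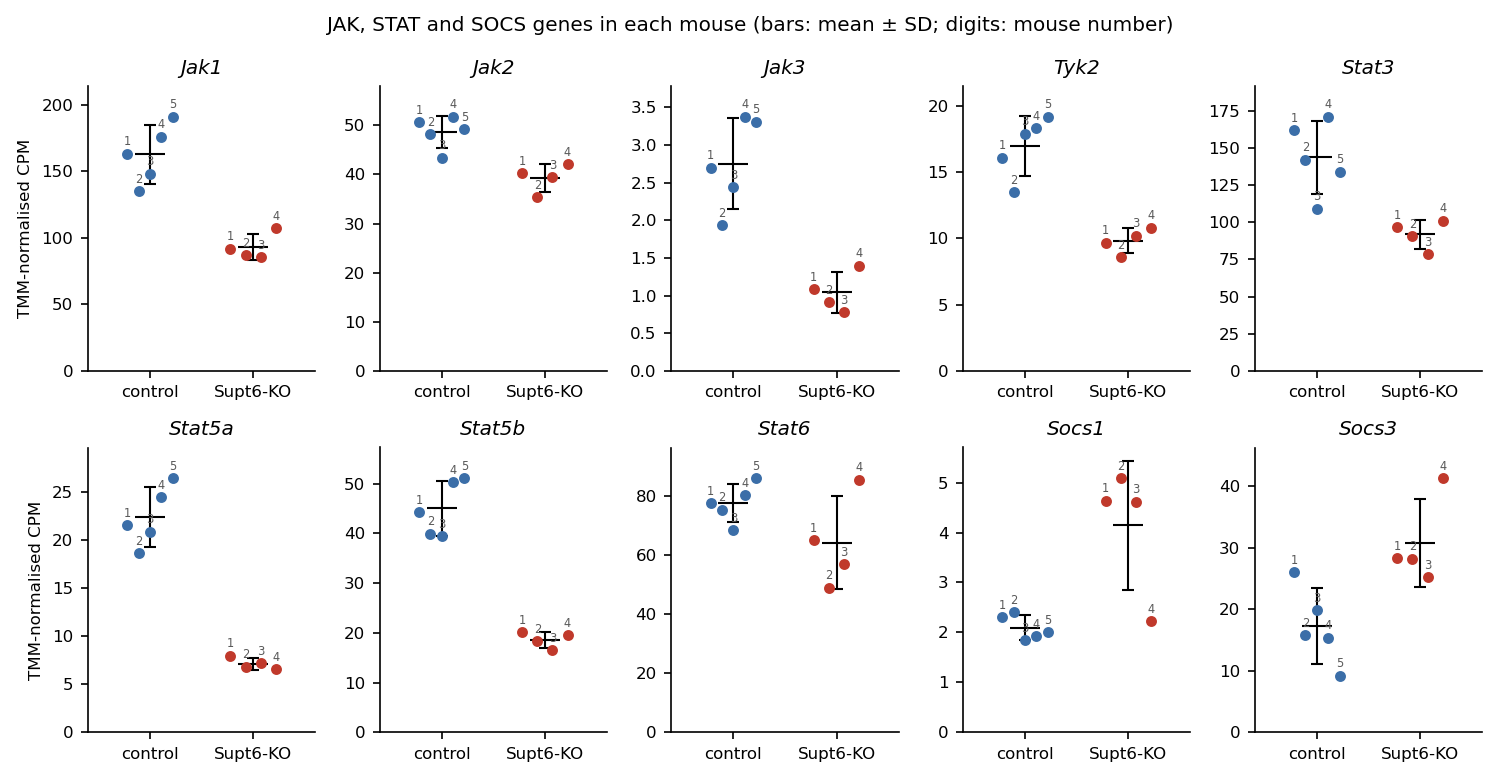
Level of each of the 10 genes in every mouse, in TMM-normalised CPM on axes that start at 0, with controls in blue, Supt6-KO mice in red, mouse numbers beside the points, and bars for the mean ± SD (n = 5 and 4). The 4 Janus kinase genes, Stat3, Stat5a and Stat5b do not overlap between the groups, whereas Stat6 and Socs1 overlap through Supt6-KO mouse 4 and Socs3 through control mouse 1.

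Among the STAT genes, Stat5a and Stat5b fell most, Stat3 fell less and Stat6 did not pass the test. Stat5b, Stat5a and Stat3 are neighbours on chromosome 11 and span 159 kb. Stat5b (100780731 to 100850724, reverse strand) and Stat5a (100859351 to 100885169, forward strand) point away from each other, with 8626 bases between their starts. The 3′ end of Stat5a overlaps that of Stat3 (100885098 to 100939540, reverse strand) by 72 bases in GENCODE. Whether strand was used in counting is not stated, so reads from the overlap cannot be assigned with certainty.

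Stat5a, which carries prolactin and cytokine signals, stood at 21.6, 18.7, 20.9, 24.5 and 26.5 CPM in the controls and at 7.98, 6.86, 7.18 and 6.57 CPM in the Supt6-KO mice. The 4 Supt6-KO values were tightly grouped far under the controls. With a mean at 31.8% of the control mean, its log2 fold change of -1.65 was the largest of the 10 genes (SE 0.14, adjusted p = 2.4e-06, edgeR). Stat5b, the close paralog that carries growth hormone signals, had 44.3, 39.9, 39.4, 50.3 and 51.1 CPM in the controls and 20.1, 18.3, 16.5 and 19.6 CPM in the Supt6-KO mice. It too showed no overlap, at a log2 fold change of -1.27 (SE 0.12, adjusted p = 4.8e-06, edgeR). Since reads can be shared between these paralogs, their sum is also given, and it was 67.4 ± 8.48 CPM (SD, n = 5) in controls and 25.8 ± 1.82 CPM (SD, n = 4) in Supt6-KO mice.

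Stat3, the main transducer of IL-6 family and IL-20 family cytokines in keratinocytes, was at 162, 142, 109, 171 and 134 CPM in the controls and at 96.8, 90.7, 78.3 and 101 CPM in the Supt6-KO mice. Control mouse 3, the lowest control, lay only slightly above Supt6-KO mouse 4, the highest of its group. The mean fell to 63.9% of the control mean (log2 fold change -0.65, SE 0.15, adjusted p = 0.00211, edgeR), a call that was lost with the length correction (-0.21, adjusted p = 0.194).

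Stat6, the transducer of IL-4 and IL-13, lies on chromosome 10 from 127642986 to 127660957 on the forward strand. It had 77.6, 75.3, 68.4, 80.2 and 86.0 CPM in the controls and 65.1, 48.9, 56.9 and 85.5 CPM in the Supt6-KO mice. Supt6-KO mouse 4 was within the range of the controls and the other 3 were under it. The log2 fold change of -0.27 did not pass the test (SE 0.16, 95% interval -0.58 to 0.03, adjusted p = 0.136, edgeR). Without Supt6-KO mouse 4 it was -0.45 and passed (adjusted p = 0.0047).

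Both SOCS genes of the set rose, as did 34.1% of all genes tested, against the direction of the kinases and STATs, although neither passed the test with library totals in place of TMM factors. Socs1, whose product inhibits JAK1, JAK2 and TYK2 directly, rested on 67 to 88 counts in the controls and 62 to 111 counts in the Supt6-KO mice. On the CPM scale the controls held 2.3, 2.41, 1.85, 1.92 and 2.01, and the Supt6-KO mice 4.64, 5.09, 4.62 and 2.23. Supt6-KO mice 1 to 3 lay far above every control, and Supt6-KO mouse 4 lay among the controls. The log2 fold change was 0.98 (SE 0.24, adjusted p = 0.00337, edgeR), and 1.18 without Supt6-KO mouse 4 (adjusted p = 6.3e-05).

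Socs3, whose product binds the gp130 receptor and is a classical STAT3 target, was at 26, 15.8, 19.9, 15.4 and 9.24 CPM in the controls and at 28.3, 28.2, 25.2 and 41.3 CPM in the Supt6-KO mice. Control mouse 1 lay above Supt6-KO mouse 3, and the other 8 mice were separated by group. The log2 fold change was 0.83 (SE 0.26, adjusted p = 0.0125, edgeR), and 0.66 without Supt6-KO mouse 4 (adjusted p = 0.0355), the mouse with the highest value. The 2 genes thus took opposite extremes in that mouse, which had the lowest Socs1 and the highest Socs3 of its group.

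Because both genes were called higher with TMM scaling, the DNA just upstream of their RefSeq starts is shown. It is from GRCm38.p6, with both genes on the reverse strand, and is printed 5′ to 3′ on the gene's strand. The Socs3 stretch is chr11:117969452-117969616, 266 to 430 bases upstream of the first base of its coding transcript in GENCODE, with the exon of a non-coding Socs3 transcript next to it left out. The Socs1 stretch is chr16:10785537-10785786, the 250 bases directly before the start of the gene. Capitals mark the STAT palindrome TTCNNNGAA, which reads the same on both strands.
Socs3: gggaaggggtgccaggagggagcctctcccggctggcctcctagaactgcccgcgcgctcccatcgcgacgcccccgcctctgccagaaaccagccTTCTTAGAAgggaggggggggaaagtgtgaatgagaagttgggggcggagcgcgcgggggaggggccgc
Socs1: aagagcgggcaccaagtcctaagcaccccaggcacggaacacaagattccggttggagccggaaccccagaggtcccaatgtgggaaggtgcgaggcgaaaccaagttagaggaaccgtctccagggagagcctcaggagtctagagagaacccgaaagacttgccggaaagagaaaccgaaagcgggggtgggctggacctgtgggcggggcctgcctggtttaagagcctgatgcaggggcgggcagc
The Socs3 stretch holds this palindrome once, as TTCTTAGAA at chr11:117969512-117969520, and the Socs1 stretch does not hold these letters. In the 250 bases upstream of the RefSeq start, 1 of the 10 genes (Socs3) and 2197 of 27025 genes with a RefSeq promoter (8.13%) had a match, and a related palindrome with a spacing of 4 was in 0 of the 10 and in 6.76% of all. A match of letters is a description of the sequence and no evidence of binding.

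Across the set, 7 genes were lower at an adjusted p under 0.05, where 36.8% of all genes tested were lower by the same rule, and 2 were higher, where 34.1% of all genes were. With a change of at least 2-fold in addition, Jak3, Stat5a and Stat5b remained among the lower genes, against a background of 24.9%, and 0 genes among the higher, against 20.9%. For 7 genes the highest Supt6-KO mouse lay under the lowest control, which was the case for 31.8% of all genes. For 0 of the 10 was every Supt6-KO mouse above every control, against 28.9% of all genes. The median log2 fold change was -0.80 over the 4 JAK genes, -0.96 over the 4 STAT genes and 0.91 over the 2 SOCS genes, and -0.07 over all genes tested.

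How far the genes moved depended on the scaling between libraries. With library totals in place of TMM factors, the median of all genes shifted from -0.07 to -0.76, and the calls among all genes went from 5608 higher and 6050 lower to 2771 higher and 8970 lower. On that scale Stat6 was also lower (log2 fold change -0.94, adjusted p = 0.00287, edgeR), while Socs1 at 0.24 (adjusted p = 0.319) and Socs3 at 0.18 (adjusted p = 0.599) did not pass. Upper-quartile factors kept the calls of Socs1 and Socs3 and added Stat6 (log2 fold change -0.36). Jak3, Stat5a and Stat5b were lower under all 17 alternatives run.

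Fold change also went with transcript length across the whole table. Over 16368 genes the log2 fold change fell by 1.93 for each unit of log10 length, and the median was 1.21 for genes up to 1 kb, 0.50 from 1 to 2 kb, -0.35 from 3 to 4 kb and -0.95 over 5 kb. The same slope taken in each library against the control mean was between -0.37 and 0.54 in the controls and between -1.90 and -1.38 in the Supt6-KO mice. The kinases and STATs are long transcripts, from 3722 bases for Stat3 to 5138 for Stat5b, and Socs1 (2846 bases) and Socs3 (2552 bases) are shorter. Among genes within 10% of the same length the median log2 fold change was -0.75 for the length of Jak1, -0.70 for that of Tyk2 and -0.44 for that of Stat3, beside -0.81, -0.79 and -0.65 for the genes themselves. At the length of Stat5a the median was -0.48, and 19.1% of such genes had a lower value than Stat5a. For Jak3 26.7% and for Stat5b 33.4% of the genes of like length had a lower log2 fold change than the gene itself. For Socs1 the share was 84.1% and for Socs3 79.4%.

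With length as a correction in the fit, 3 of the 7 lower calls held, namely Stat5a at -1.21 (adjusted p = 7e-06, edgeR), Jak3 at -0.89 (adjusted p = 0.00376) and Stat5b at -0.57 (adjusted p = 0.00025). Jak1 at -0.14, Tyk2 at -0.16 and Stat3 at -0.21 no longer passed. Jak2 turned to 0.36 and was called higher (adjusted p = 0.00574), and Stat6 turned to 0.17 (adjusted p = 0.284). Socs1 at 1.19 (adjusted p = 0.00101) and Socs3 at 0.96 (adjusted p = 0.00538) stayed higher. The correction removes any change that goes with length, whatever its source, and the source was not tested.

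Ratios of 2 genes within a library do not depend on the scaling between libraries, and 8 were compared by an exact two-sided permutation test with adjustment over the 8. The smallest p that 5 mice against 4 allow is 0.0159, or 0.0254 after adjustment here, and 5 ratios reached it. Socs3 over Stat3, the feedback gene against its activator, had a log2 ratio of -2.64, -3.17, -2.46, -3.48 and -3.86 in the controls and of -1.77, -1.68, -1.64 and -1.3 in the Supt6-KO mice. All 4 Supt6-KO mice were above all 5 controls, with means of -3.12 ± 0.58 (SD, n = 5) and -1.60 ± 0.21 (SD, n = 4) that differ by 1.52 (exact permutation p = 0.0159, adjusted 0.0254).

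Within the kinases, Jak2 over Jak1, a pair of nearly the same length (4947 and 4906 bases), was at -1.73 ± 0.17 (SD, n = 5) in controls and -1.24 ± 0.11 (SD, n = 4) in Supt6-KO mice, higher by 0.50 without overlap. Jak3 over Jak1 differed by -0.58, again without overlap. Tyk2 over Jak1 kept a mean of -3.26 ± 0.12 (SD, n = 5) against -3.24 ± 0.13 (SD, n = 4), a difference of 0.02 that was within the spread (exact permutation p = 0.794).

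Within the STATs, Stat5a over Stat5b differed by -0.37 without overlap, and Stat5a made up 33.3% ± 1.11 (SD, n = 5) of the counts of both paralogs in controls and 27.8% ± 2.19 (SD, n = 4) in Supt6-KO mice. Stat3 over Stat5b was 1.67 ± 0.22 (SD, n = 5) in controls and 2.3 ± 0.05 (SD, n = 4) in Supt6-KO mice, a difference of 0.63 without overlap. Stat6 over Stat3 differed by 0.34 with overlapping groups (exact permutation p = 0.0794, adjusted 0.106), and Socs1 over Socs3 by 0.03 (exact permutation p = 1). Jak2 and Jak1, Tyk2 and Jak1 (4694 and 4906 bases), and Stat6 and Stat3 (3775 and 3722 bases) were within 10% of the same length. The genes of the other pairs differ more in length.

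Levels of different genes were compared per length, with the deposited TPM values (transcript abundance per length and library) of the 5 controls. Stat3 at 54.6 ± 12.1 TPM (SD, n = 5) and Jak1 at 53.5 ± 13.9 TPM were the most abundant and were not separated, with Stat3 above Jak1 in 3 of 5 mice. Stat6 followed at 35.6 ± 7.31 TPM, under Jak1 in 5 of 5 mice. Jak2 (16.4 ± 2.72 TPM), Stat5b (15.7 ± 3.81 TPM), Socs3 (11.2 ± 3.76 TPM) and Stat5a (10.5 ± 2.79 TPM) formed a middle group in which neighbours changed places in at least 1 mouse. Tyk2 at 6.08 ± 1.45 TPM, Socs1 at 3.63 ± 0.497 TPM and Jak3 at 1.27 ± 0.423 TPM came last and kept this order among themselves in 5 of 5 mice, although Tyk2 was above Socs3 in control mouse 5. In the 4 Supt6-KO mice, ranked by counts per kb, Socs3 was the 4th most abundant of the 10 genes, and by mean TPM in the controls it was the 6th. Stat3 was the most abundant by counts per kb in all 4 Supt6-KO mice, and by TPM in mouse 4 Stat6 (19.49 TPM) and Stat3 (19.2 TPM) were nearly level.

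For the further lists of pathway genes, the shares over all genes given above, 34.1% higher and 36.8% lower, are the background of each count with TMM scaling. Counts with library totals stand against 2771 higher and 8970 lower of 16426 genes. Counts with the length correction stand against 6081 higher and 5019 lower of 16368 genes. Of the 8 other STAT and SOCS genes, 3 were higher, 3 lower and 2 did not pass the test, which is close to that background, with a median log2 fold change of -0.29. Socs4 rose from 5.71 ± 1.18 to 10.9 ± 3.18 CPM, a log2 fold change of 0.93 (adjusted p = 0.00222, edgeR). Socs5 at 0.65 and Socs6 at 0.45 rose as well. With the length correction Socs4 stood at 1.83 and Socs5 at 1.26. With library totals 0 of the 8 were higher and 4 lower, and Socs4 was at 0.27, Socs5 at -0.02 and Socs6 at -0.21. Socs7 fell from 33.4 ± 3.45 to 9.54 ± 1.5 CPM (log2 fold change -1.81, or -0.86 with the length correction), and Cish, a STAT5-induced inhibitor, from 29.8 ± 3.51 to 17.8 ± 3.99 CPM (log2 fold change -0.74, adjusted p = 0.00194, edgeR). Stat2, which carries type I interferon signals, was called at -0.46 (adjusted p = 0.0453) but not in 7 of the 9 fits that left out a mouse (-0.29 and adjusted p = 0.0579 without Supt6-KO mouse 4) and turned to 0.12 with the length correction. Socs2 had a log2 fold change of -0.28 (adjusted p = 0.256), and Stat4 one of -0.30 (adjusted p = 0.648) on 6 to 14 counts in the controls and 1 to 10 in the Supt6-KO mice, or -1.14 (adjusted p = 0.087) without Supt6-KO mouse 1, which held the 10.

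Among 12 other inhibitors of the pathway, which are PIAS proteins, tyrosine phosphatases, the adaptor gene Sh2b3 and the ubiquitin ligase genes Cbl and Cblb, 8 were lower and 1 higher, with a median of -0.58. With library totals 11 were lower and 0 higher, and with the length correction 5 were lower and 2 higher, with a median of -0.12. Without Supt6-KO mouse 4, 9 were lower and 2 higher, with a median of -0.68. Cbl had a log2 fold change of -1.84 and Cblb of -1.65, and Sh2b3, the gene of the JAK2 inhibitor LNK, fell from 24.0 ± 2.29 to 9.07 ± 0.972 CPM. Ptpn2, a phosphatase of JAK1, JAK3 and STATs, was the 1 higher gene with TMM scaling and all mice. It rose from 35.9 ± 4.09 to 58.7 ± 11.6 CPM (log2 fold change 0.71, adjusted p = 0.000968, edgeR), and with library totals it stood at 0.04 and did not pass.

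Of 40 receptor genes tested, 14 were lower and 9 higher, with a median of -0.20. The share of lower genes is close to the background. With library totals 24 were lower and 3 higher, with a median of -0.86, and with the length correction 12 were lower and 13 higher, with a median of -0.15. The gp130 family had the lowest median of the 10 lists, with 5 of 7 lower, 0 higher and a median of -0.91, while all 7 were lower with library totals, 3 with DESeq2, and 5 with 1 higher and a median of -0.55 with the length correction. Il6ra, the ligand-binding chain for IL-6, fell from 76.8 ± 13.5 to 7.55 ± 3.43 CPM, a log2 fold change of -3.34 (SE 0.27, adjusted p = 1.6e-06, edgeR), or -2.53 with the length correction. Il6st, the gp130 chain that the family shares, fell from 102 ± 18.2 to 47 ± 5 CPM (log2 fold change -1.12, adjusted p = 3.8e-05), and Cntfr had a log2 fold change of -2.20. Cntfr stood at 26.3 CPM in control mouse 1 and at 4.57 to 6.31 CPM in the other controls, and without that mouse its log2 fold change was -1.37 (adjusted p = 0.00718, edgeR).

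The common gamma chain and related receptors divided, with 4 of 10 higher and 3 lower and a median of 0.21, or 2 higher and 3 lower with a median of -0.45 with library totals. Il13ra1, the chain that joins IL-4 receptor alpha to bind IL-13, rose from 171 ± 33.3 to 528 ± 47.4 CPM, a log2 fold change of 1.63 (adjusted p = 5.7e-06, edgeR). Il15ra rose by 1.3 and Il4ra by 0.96 on the log2 scale, the latter not with library totals (0.33, adjusted p = 0.369) and by 1.64 with the length correction. Il4ra was at 86.2 CPM in Supt6-KO mouse 4 and 33.4 to 44.5 CPM in the others, and its log2 fold change was 0.58 without that mouse. Il15ra in the same mouse, at 16.7 CPM, lay within the control range of 9.83 to 18.8 CPM. Il2rb, Il7r and Il2rg, the common gamma chain with which JAK3 associates, fell, with log2 fold changes of -3.50, -1.72 and -0.89. Among the other lymphocyte chains, Il21r was called higher at 1.29 (adjusted p = 0.0217, edgeR) on 1 to 7 counts in a library, and Il2ra was at 0.20 (adjusted p = 0.579). The T cell marker sum given beside Jak3 moved with these 3 genes, and its part was not tested.

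Interferon and IL-10 family receptors were 3 higher and 1 lower of 10, with a median of -0.09, but 0 higher and 6 lower with library totals and 5 higher and 1 lower with the length correction. Ifngr2 rose by 1.05, Il10rb by 0.77 and Il10ra by 0.51 on the log2 scale, but none of these 3 passed with library totals (0.32, 0.06 and -0.19), nor did Il10ra without Supt6-KO mouse 3 (adjusted p = 0.0748). In Supt6-KO mouse 4 Ifngr2 was at 42 CPM, within the control range of 28.5 to 48.8 CPM. Ifngr1, the ligand-binding chain for interferon-gamma, fell from 225 ± 32.9 to 138 ± 18.2 CPM. Hormone, colony-stimulating factor and IL-12 family receptors were 2 higher and 5 lower of 13, or 1 and 8 with library totals and 3 and 3 with the length correction. Csf3r, the G-CSF receptor of neutrophils, rose from 0.496 ± 0.144 to 8.47 ± 2.99 CPM (log2 fold change 4.08, adjusted p = 8.7e-07, edgeR), whereas Il12rb2 (log2 fold change -3.49), Prlr (-1.48) and Csf2ra (-1.05) fell. Beside Csf3r, 7 of 8 neutrophil markers were higher, their sum was 6.64 ± 1.94 CPM in controls against 42.4 ± 26 CPM in the Supt6-KO group, and Ltf was at 0 in every control. Cxcr2 was the most abundant of them in the controls (6 CPM), and Retnlg in the Supt6-KO group (20.6 CPM) through mouse 3 (53.4 CPM), while Cxcr2 was above it in mice 1 and 4. The part of these markers in the Csf3r result was not tested.

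Ligands had the highest median of the 10 lists, with 14 of 23 tested higher and 3 lower. Without Supt6-KO mouse 3, 1 was lower. That median was 1.73, or 1.04 with library totals, where 13 were higher and 4 lower. It was 1.46 on the TMM scale with the 5 ligands whose controls held 3 counts or fewer set to a lower bound. For that bound the controls are taken as 3 counts per library. Some ligands, Csf3 and Il24 among them, passed the low-count filter only through the Supt6-KO mice and so could only come out higher. Apart from the fits that left out each mouse in turn, the count of higher ligands ran from 3 to 16. It was lowest where at least 10 counts were required in every sample. Csf3, encoding G-CSF, had 0 to 3 counts in the controls and 38 to 219 in the Supt6-KO mice and was at least 62.7-fold higher on the TMM scale and 37.3-fold with library totals. Il24, of the IL-20 family that signals through JAK1 and STAT3, had 0 to 3 counts against 23 to 492 and was at least 65.2-fold higher on the TMM scale and 46.2-fold with library totals. The first bound rests on Supt6-KO mouse 4, at 17.7 CPM against 1.05 to 1.2 CPM in the other 3, and without it the bound was 13.8-fold. Il19, of the same family, rose from 0.147 ± 0.152 to 14.6 ± 14.1 CPM, a log2 fold change of 6.61 (SE 0.79, adjusted p = 1.9e-05, edgeR). Here too Supt6-KO mouse 4 was highest, at 35.6 CPM against 5.95 to 9.74 CPM, and the log2 fold change was 5.66 (adjusted p = 5.8e-06) without it and 7.33 (adjusted p = 4.5e-05) without control mouse 2. Lep, encoding leptin, fell from 7.74 ± 1.92 to 0.936 ± 0.232 CPM (log2 fold change -3.04), and Ctf1 (-0.66, or -1.25 with the length correction) and Il7 (-0.56, adjusted p = 0.048) fell too, but the Il7 call was lost in 8 of the 9 fits that left out a mouse and the Ctf1 call without Supt6-KO mouse 3 (adjusted p = 0.0517). Of 8 adipocyte markers, which include Lep, 6 were lower, and their sum, led by Fabp4, was 417 ± 65.5 CPM in controls against 345 ± 63.0 CPM in the Supt6-KO group.

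**Figure D2:**
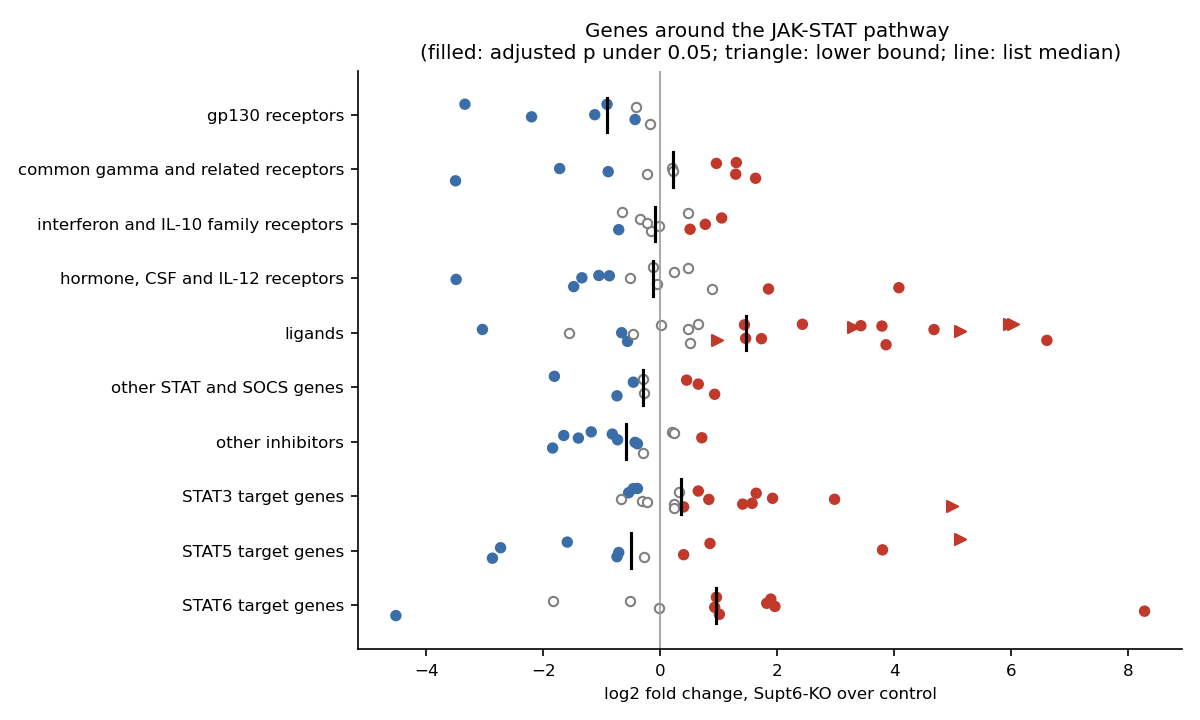
Log2 fold change (Supt6-KO over control) of each gene in 10 lists around the pathway, with higher genes in red and lower genes in blue where the adjusted p was under 0.05, open circles otherwise, triangles at the lower bound for genes with 3 counts or fewer in every control, and black lines at the list median. Ligands lie furthest to the right, with a median of 1.46, and the gp130 receptors furthest to the left, with a median of -0.91. Some ligands passed the low-count filter only through the Supt6-KO mice.

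Genes known as STAT targets moved in both directions in each of the 3 lists. Of 18 STAT3 target genes, 9 were higher and 3 lower with a median of 0.36. With library totals 5 were higher and 8 lower, and the median turned to -0.31. With the length correction 10 were higher and 1 lower, with a median of 0.54. Birc5, the survivin gene, rose from 7.79 ± 0.735 to 61.6 ± 41.4 CPM, and Lcn2, encoding lipocalin 2, by 1.92 on the log2 scale, or by 1.2 with the length correction. Reg3g, an antimicrobial lectin gene, had 1 to 2 counts in the controls and 11 to 129 in the Supt6-KO mice and was at least 31.9-fold higher on the TMM scale and 19.4-fold with library totals. Like Csf3 and Il24, Reg3g passed the low-count filter only through the Supt6-KO mice. Supt6-KO mouse 3 was highest, at 5.9 CPM against 0.46 to 2.44 CPM in the other 3, and without it the bound on the TMM scale was 18.2-fold. Klf4 (log2 fold change -0.54), Myc (-0.46) and Bcl2l1 (-0.39) fell, the last not without Supt6-KO mouse 3 (adjusted p = 0.0539). With the length correction Myc stayed lower (-0.61, adjusted p = 0.00204), and Klf4 (-0.28, adjusted p = 0.114) and Bcl2l1 (-0.30, adjusted p = 0.0524) did not pass.

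Of 10 STAT5 target genes, 4 were higher and 5 lower, with a median of -0.50, or 2 and 6 with library totals and 2 and 5 with the length correction. Ccnd2, encoding cyclin D2, fell from 181 ± 25.7 to 27.3 ± 11.7 CPM, a log2 fold change of -2.73 (adjusted p = 5.9e-06, edgeR; -3.34 with the length correction), and Igfals (-2.87) and Bcl6 (-1.59) fell too. Osm, encoding oncostatin M and counted among the ligands too, was at least 34.7-fold higher on the TMM scale and 22-fold with library totals, Gzmb rose by 3.80 and Pim2 by 0.85 on the log2 scale, the last neither with library totals (0.17) nor with the length correction (0.30, adjusted p = 0.108). Without control mouse 4 the Gzmb value was 4.58 (adjusted p = 0.000109, edgeR).

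Of 11 STAT6 target genes, 7 were higher and 1 lower, with a median of 0.96, while Stat6 itself did not pass the test. Without Supt6-KO mouse 3, 7 were higher and 2 lower. With library totals 4 were higher and 2 lower with a median of 0.32, and with the length correction 5 were higher and 2 lower with a median of 0.20. Chil3, a chitinase-like gene of macrophages, rose from 0.157 ± 0.0686 to 49.7 ± 15.2 CPM (log2 fold change 8.28, adjusted p = 2.5e-08, edgeR). Clec10a rose from 11.1 ± 3.50 to 43.3 ± 8.72 CPM and Mrc1, the mannose receptor gene, from 21.7 ± 12.1 to 80.3 ± 11.4 CPM, whereas Retnla, another gene induced through STAT6, had a log2 fold change of -4.52, or -5.6 without Supt6-KO mouse 1. With the length correction Mrc1 moved from 1.89 to 2.68 and Retnla to -5.53 on the log2 scale. The sum of 7 macrophage markers, led by Csf1r in the controls and by C1qb in the mean of the Supt6-KO group, was 135 ± 45.5 CPM in controls against 192 ± 30.3 CPM in the Supt6-KO group, 5 of the 7 were higher and 1 lower, and their part in these results was not tested.

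Summed markers of other cell types are given as well, without a test between the groups. The summed level of 8 skeletal muscle markers, led by Acta1 in the controls and by Mylpf in the mean of the Supt6-KO group, was 5077 ± 648 CPM (SD, n = 5) in controls and 1196 ± 249 CPM (SD, n = 4) in Supt6-KO mice. Fibroblast markers, led by Col3a1, summed to 5877 ± 2944 CPM and 2961 ± 797 CPM, endothelial markers, led by Pecam1, to 106 ± 27.9 CPM and 54.7 ± 5.97 CPM, and mast cell markers, led by Mcpt4 in the controls and by Cma1 in the mean of the Supt6-KO group, to 127 ± 42.0 CPM and 152 ± 20 CPM. The mast cell sums of the Supt6-KO mice (123 to 169.8 CPM) lay within the control range (77.9 to 191 CPM). Fibroblast sums overlapped too, at 3116 to 10781 CPM in controls and 2117 to 3979 CPM in Supt6-KO mice. Of 8 markers each, 7 muscle and 7 endothelial markers were lower and 0 higher. Among 8 fibroblast markers 4 were lower and 1 higher, and among 8 mast cell markers 1 was lower and 3 higher. The part of these markers in the levels of the broadly expressed Jak1, Stat3, Stat5a and Stat5b was not tested.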

How the data were processed

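Bulk mRNA libraries of skin from 5 control and 4 Supt6-KO mice were analysed. The authors mapped reads to mm10, and the estimated counts they deposited are RSEM values per gene, with no normalisation between samples, beside TPM values for 6 of the 9 samples. Per the labels, the tools were HISAT, Bowtie2 2.3.4.3, RSEM 1.3.1 and DESeq2 1.4.5. Of 17943 identifiers, 17917 matched a RefSeq gene of GRCm38.p6. Coordinates and lengths are from GENCODE for the same build, with a length for 17866 genes.

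About 9% of the estimated counts were not whole and all were rounded. A gene entered the fit with a sum of at least 10 counts. Groups were compared with edgeR 4.0.16 (R 4.3.3), TMM factors and the quasi-likelihood test, without covariates, with Benjamini-Hochberg adjustment and a threshold of 0.05. The main edgeR fit, the DESeq2 fit and the fit with the length correction were tested on simulated data first, and the other settings were not. Ratios used counts plus 0.5, and all 126 regroupings. Library depth spanned 29627334 to 30967109 counts, a floor of 3 counts was used for lower bounds, and floors cover counting error only. The fits were repeated with library totals, upper-quartile factors, DESeq2 1.42.0, TMM without the 50 most abundant genes, other filters, a replicate block, a length correction and each mouse left out.

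The genes named are the 10 members, Supt6, 8 other STAT and SOCS genes, and from each further list up to 3 genes in each direction with the largest change among those called with at least 1 CPM in the higher group, with the most abundant gene of each marker list, in either group, and markers at 0. Il21r and Il2ra fall outside this rule and were chosen after their values were seen. The members and lists were chosen with earlier results of these data known. Tables were made with Python 3.11.15 and pandas 2.3.3. A few genes of the lists are not reported here and are left out of the list counts. Other assays of the study were not analysed here.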

Additional observations from a re-analysis of the deposited data

Results flagged for a closer look

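In 62 groups of values (a gene, ratio or marker sum in the 5 controls or the 4 Supt6-KO mice), 5 had 1 mouse far from the rest by Dixon's criterion, which chance alone flags in about 1 in 20 groups. Socs1 was at 2.23 CPM in Supt6-KO mouse 4, where the median of the group was 4.63 CPM. The log2 ratio of Socs1 over Socs3 was -4.20 in the same mouse, with a group median of -2.53. The suprabasal keratinocyte markers summed to 21870.1 CPM in this mouse as well, with a group median of 43172 CPM. Among the controls, the log2 ratio of Tyk2 over Jak1 was -3.05 in mouse 3 (median -3.31), and the basal keratinocyte markers summed to 14042 CPM in mouse 4 (median 12506 CPM).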

How the results depend on the processing

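The counts of called members were 2 higher and 7 lower. They were 2 and 6 to 8 with each mouse left out. With library totals 0 were higher, and with the length correction 3 were lower. Over all genes, 5608 higher calls became 2771 with library totals. Over the 118 pathway genes, 45 higher and 36 lower became 26 and 57 with library totals, and 28 were higher where at least 10 counts were required in every sample, which tested 85 genes. Directions turned with the length correction for Jak2 (0.36), Stat6 (0.17) and Stat2 (0.12), and with library totals for Socs5 (-0.02), Socs6 (-0.21) and Il10ra (-0.19), and the cause was not tested. With a Supt6-KO mouse left out, 5 against 3 mice allow no exact permutation p under 0.0357, and the 5 ratios stayed at that smallest p each time. Adjusted over 8 ratios it becomes 0.0571 when 5 reach it and 0.0476 when 6 do, as without mouse 2, so these p-values say nothing on how stable the ratios are. Their differences with each mouse left out ran from 0.44 to 0.56 for Jak2 over Jak1, from -0.66 to -0.49 for Jak3 over Jak1, from -0.43 to -0.31 for Stat5a over Stat5b, from 0.56 to 0.68 for Stat3 over Stat5b and from 1.34 to 1.69 for Socs3 over Stat3. Tyk2 over Jak1 ran from -0.04 to 0.07, Socs1 over Socs3 from -0.13 to 0.46, and Stat6 over Stat3 from 0.24 to 0.45, the last being the 6th ratio at the smallest p without Supt6-KO mouse 2. Mice of the 2 groups with the same number showed a mean correlation of 0.079 between their deviations (4 pairs), against -0.016 over 16 other pairs, so the numbers were not taken as pairing. With a replicate block, a fit that leaves out control mouse 5, the same 7 members were lower and 2 higher, and 5271 genes were higher and 5803 lower over the table. Jak3 and Socs1, with at most 130 counts in a library, are the members that depth limits most.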

Other observations

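Genes whose log2 CPM followed Stat3 most closely over the 9 mice, among 12603 genes, were Irf2bp2, Mfhas1 and Zc3hav1, and those nearest to Socs3 were Eif2s3x, Stk17b and Sprr1a. The likeness includes the difference between the groups. Irf2bp2, Mfhas1 and Zc3hav1 had log2 fold changes of -0.79, -0.94 and -0.55. Eif2s3x, Stk17b and the cornified envelope gene Sprr1a had log2 fold changes of 0.57, 0.66 and 2.86.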
